A study of Mus musculus with 10 samples.

Results

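Chemokines are small secreted proteins that direct the movement of cells through G protein-coupled receptors, and they are grouped as CC, CXC, C and CX3C ligands by the spacing of their first cysteines. In the thymus, ligands made by thymic epithelial cells (TEC) draw progenitors in from the blood, move thymocytes between cortex and medulla and position dendritic cells. Atypical receptors bind chemokines without signalling through G proteins and remove them. The transcription factor Foxn1 is needed for TEC to mature, and Ccl25 and Cxcl12 are among the ligands whose thymic expression is known to depend on it.

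The genes described here are the chemokines and chemokine receptors of the deposited count table, chosen by symbol (Ccl, Cxcl, Cx3c and Xc ligands, Ccr, Cxcr, Cx3cr and Xcr receptors, and Ackr2 to Ackr4) with at least 30 counts over 10 libraries. Of 15790 genes, 46 matched the symbols and 44 reached the minimum, comprising 17 CC ligands, 13 CXC ligands, 1 C ligand, 1 CX3C ligand, 9 signalling receptors and 3 atypical receptors. Just inside the minimum were Ccr1 with 30, Ccr4 with 45 and Ccl3 with 46 counts. Ccr9 with 17 and Cx3cr1 with 15 counts, the receptors of Ccl25 and Cx3cl1, were just outside. No symbol beginning with Ccl21 was among the 46 matched, so the Ccl21 genes are not analysed here.

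Libraries were made from sorted mouse TEC by bulk MARS-seq, in which reads come from the 3′ ends of transcripts. AR3_mut (3 libraries) carried the Foxn1 del AR3 mutation on C57BL/6 at 4.5 weeks. The nude group (4 libraries) was nu/nu on the ICR strain at 5 weeks, nu being a loss-of-function allele of Foxn1. The AR3_Het group (3 libraries) was heterozygous for the same del AR3 allele, also C57BL/6 and 4.5 weeks, so these controls too carry 1 mutated copy and no library is from a wild-type mouse. Strain and age change with genotype in nude, so the parts of strain, age and genotype in any difference between nude and another group cannot be told apart. The labels do not state whether replicates are separate mice, and a p-value here reflects the spread between libraries, which may be technical.

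Library totals ran from 1056066 to 4175851 counts. Foxn1 had 4, 2 and 2 counts in AR3_mut, 4, 3, 1 and 2 in nude, and 1844, 1046 and 1711 in AR3_Het. Levels are given as CPM, counts scaled to 1000000 per TMM-adjusted library (edgeR's trimmed mean of M-values). The epithelial marker Epcam was present in every library, with 67.1 to 210.0 CPM in the AR3_mut libraries, 249 to 519 CPM in the nude libraries and 187 to 329 CPM in the AR3_Het libraries. The 8 epithelial markers together took 0.182 to 0.458% of the counts in AR3_mut, 0.424 to 0.649% in nude and 0.905 to 1.26% in AR3_Het, without overlap of either mutant group and AR3_Het, and 3 of the 8 fell in each mutant group. Among them Krt8 ranged between 429 and 1408 CPM in AR3_mut, which lay below AR3_Het (1554 to 2432 CPM), while nude overlapped it (1291 to 1725 CPM). The cortical TEC proteasome gene Psmb11 was at 0.579 CPM or less in AR3_mut, at 0 in nude and at 209 CPM or more in AR3_Het. The 9 medullary TEC markers took 0.214 to 0.308% of the counts in AR3_Het. They took 0.026 to 0.113% in AR3_mut, where 0 rose and 5 fell, and 0.0646 to 0.139% in nude, where 1 rose and 7 fell. RNA of other cells also differed. The 12 endothelial markers together took 0.484 to 0.61% of the counts in AR3_mut, 0.111 to 0.199% in nude and 0.0193 to 0.0231% in AR3_Het. The 10 fibroblast markers took 0.279 to 0.585% in AR3_mut, 0.443 to 1.25% in nude and 0.0161 to 0.0306% in AR3_Het. The 12 thymocyte and T cell markers took 0.00084 to 0.00104% in AR3_mut, 0.000386 to 0.000701% in nude and 0.0793 to 0.145% in AR3_Het, and Cd3d, Cd8b1, Rag1 and Themis were at 0 counts in both mutant groups. The 14 immediate-early and dissociation genes, which include the heat shock genes Hspa1a and Hspa1b, took 3.1 to 4.01% in AR3_mut. They took 2.11 to 3.3% in nude and 0.459 to 0.674% in AR3_Het. In bulk RNA, fewer cells of a type and less RNA per cell cannot be told apart, and the part of these other cells in the results was not tested. AR3_mut 1 stood apart from the other AR3_mut libraries in several members, and its counts of Lyz2, a lysozyme of macrophages and some epithelia singled out after its values were seen, were 8115 against 355 and 50 in AR3_mut 2 and 3. The other 17 myeloid markers together took 0.0157% of the counts in AR3_mut 1, and 0.0198 and 0.0152% in AR3_mut 2 and 3. AR3_Het 3 was the 1 library with Ddx3y, a Y-linked gene, above 1.20 CPM of library total (104 CPM).

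Chemokine genes that changed against AR3_Het mostly fell, and more of them in nude than in AR3_mut by count. By edgeR's quasi-likelihood test with Benjamini-Hochberg adjustment over 12912 genes and a threshold of 0.05, 8 of 36 tested members rose and 16 fell in AR3_mut against AR3_Het. Over all genes in that comparison 41.8% were called, 21.2% as higher and 20.6% as lower. With library totals in place of TMM scaling, 34.7% instead of 50.7% of the genes called were higher in AR3_mut, and the median of all genes moved to −0.33 on the log2 scale. The members kept a split of 7 higher and 17 lower under that scaling. In nude against AR3_Het 6 members rose and 25 fell, where 47.9% of all genes were called, 23.7% as higher and 24.2% as lower. Library totals took the share of called genes that were higher in nude to 30.6%, instead of 49.5%, with a median of all genes of −0.41, and the members' split to 4 and 26. The median member had a log2 fold change of −1.38 in AR3_mut and −2.90 in nude against AR3_Het, also with genes at 0 counts set to their bound, beside medians of −0.04 and −0.03 over all genes tested. Both comparisons share the AR3_Het libraries.

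To be tested, a gene needed in at least 3 libraries the share of the library total that 10 counts make at the median total. In a library above the median total that is more than 10 counts. A member abundant only in AR3_Het was therefore tested because it was high there, and 8 low members were not tested. Without that filter 9 of 44 members rose and 23 fell in AR3_mut, where 38% of all genes were called, 18% as higher and 19.9% as lower. In nude 6 of 44 rose and 32 fell, where 45.8% of all genes were called, 20.4% as higher and 25.4% as lower. The libraries of AR3_mut and AR3_Het did not overlap in CPM for 27 of the 36 tested members, against 55% of all genes, and those of nude and AR3_Het for 30, against 53.8%.

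Of 15 tested CC ligands 2 rose and 11 fell in AR3_mut, and 2 rose and 12 fell in nude. Of 12 tested CXC ligands 3 rose and 3 fell in AR3_mut, near the shares over all genes given above, and 3 rose and 7 fell in nude. The difference between the families was not tested. Summed over the 17 CC ligands, the level was 271, 307 and 312 CPM in AR3_mut 1 to 3, 238, 302, 96.8 and 210.0 CPM in nude 1 to 4, and 5734, 4794 and 4411 CPM in AR3_Het 1 to 3. Every AR3_mut and nude library lay below every AR3_Het library in this sum, most of which was Ccl25 in AR3_Het. The 13 CXC ligands together reached 2123, 2116 and 2310.0 CPM in AR3_mut, 1312, 2008, 1216 and 1586 CPM in nude and 2284, 2550.1 and 2139.8 CPM in AR3_Het. Here AR3_mut and AR3_Het overlapped, and the genes that made up the sum differed, as given gene by gene below. The 9 signalling receptors summed to 55.1, 21.4 and 21.9 CPM in AR3_mut, 11.2, 12.4, 5.53 and 16.8 CPM in nude and 79.7, 74.3 and 54.9 CPM in AR3_Het, with AR3_mut 1 just above the lowest AR3_Het library.

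**Figure D1:**
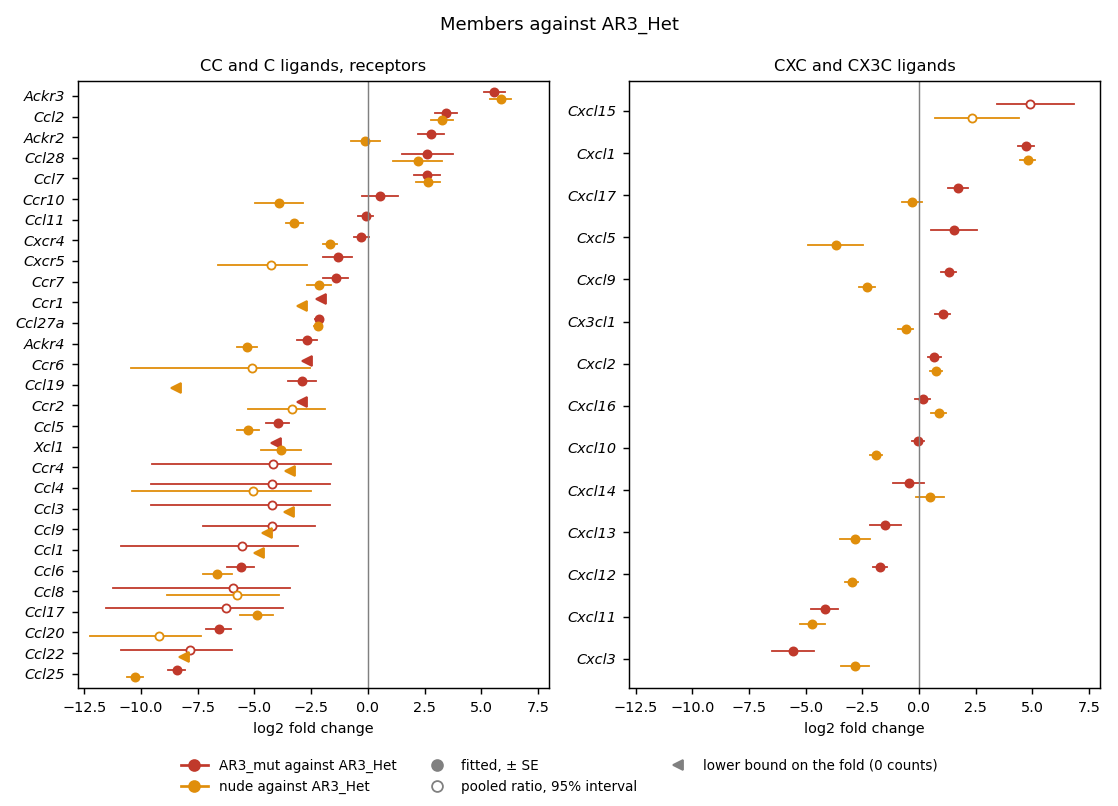
Log2 fold change (horizontal axis) of 43 members in AR3_mut (red) and nude (orange) against AR3_Het, ordered from lowest at the bottom by the value in AR3_mut, with CC and C ligands and receptors on the left and CXC and CX3C ligands on the right. Filled points are fitted values ± SE, open points are ratios of pooled counts with a 95% counting interval where a group had few counts, and triangles are bounds where a group had 0 counts. Ccl25 has the lowest fitted value drawn, −8.43 in AR3_mut and −10.27 in nude, and Ackr3 the highest, 5.58 in AR3_mut and 5.87 in nude.

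Ccl25 and Cxcl12, which recruit and place progenitors and thymocytes, fell in both mutant groups. Ccl25, made in the cortex and bound by Ccr9 on progenitors and thymocytes, was at 15.3, 11.6 and 6.97 CPM in AR3_mut 1 to 3, 4.34, 2.06, 2.21 and 4.09 CPM in nude 1 to 4, and 4772, 3699 and 3678 CPM in AR3_Het 1 to 3. The 3 groups did not overlap, with AR3_mut above nude and both far below AR3_Het. Ccl25 fell in AR3_mut (log2 fold change −8.43 ± 0.37, adjusted p = 1.33e-07) and in nude (log2 fold change −10.27 ± 0.36, adjusted p = 1.54e-08). Beside a log2 fold change, ± gives the SE, the larger of the fitted and the counting error. The gene lies at chr8:4325210-4360020 of GRCm38 on the plus strand and overlaps Elavl1 on the other strand. In all 14 members overlap a gene on the other strand, and whether counting used strand is a detail not given in the sources used here.

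Cxcl12, the ligand of Cxcr4 that holds progenitors and early thymocytes in the cortex, was at 463, 504 and 457 CPM in AR3_mut, 187, 97.7, 273 and 242 CPM in nude and 1538, 1615 and 1509 CPM in AR3_Het. It kept a middle level in AR3_mut, and no groups overlapped. Cxcl12 fell in AR3_mut (log2 fold change −1.71 ± 0.30, adjusted p = 0.000839) and in nude (log2 fold change −2.96 ± 0.29, adjusted p = 8.32e-06). Fibroblasts and endothelium are known to make Cxcl12 too, and their marker shares, given above, were higher in both mutant groups than in AR3_Het. The part of these cells in the level of Cxcl12 was not tested.

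The promoter windows of Ccl25 and Cxcl12 are shown because these were the most abundant ligands of AR3_Het that fell and because the Foxn1 core motif GACGC occurs in both. Windows run 5′ to 3′ from 250 bases before to 50 after a transcription start, from RefSeq on GRCm38.p6, and capitals mark GACGC or its reverse complement. Ccl25 has a second annotated start, whose window holds no match.
Ccl25 (chr8:4324960-4325259, plus strand): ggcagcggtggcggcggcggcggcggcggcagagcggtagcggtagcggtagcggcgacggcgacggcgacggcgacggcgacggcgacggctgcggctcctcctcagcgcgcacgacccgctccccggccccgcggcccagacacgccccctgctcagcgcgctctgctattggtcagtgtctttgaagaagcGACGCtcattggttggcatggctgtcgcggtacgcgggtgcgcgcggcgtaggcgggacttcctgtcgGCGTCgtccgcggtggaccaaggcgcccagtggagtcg
Cxcl12 (chr6:117168285-117168584, plus strand): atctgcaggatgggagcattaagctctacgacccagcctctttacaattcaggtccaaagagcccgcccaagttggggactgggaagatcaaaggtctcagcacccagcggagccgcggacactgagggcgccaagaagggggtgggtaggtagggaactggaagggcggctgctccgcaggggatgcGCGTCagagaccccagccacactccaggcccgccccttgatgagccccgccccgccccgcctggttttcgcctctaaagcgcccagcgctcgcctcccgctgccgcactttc
The Ccl25 window holds the motif 56 bases before the start and again 12 bases after it on the other strand, and the Cxcl12 window holds it once, 62 bases before the start. Across 35 windows of the 31 members with a RefSeq promoter, 4 held GACGC on either strand (11.4%), those of Ccl25, Ccl8, Ccl9 and Cxcl12, against 27.2% of 32851 windows of all genes. All 4 genes fell in AR3_mut and in nude, but 13 of 17 windows of members that fell in AR3_mut had no match. A match describes these letters and is no evidence of binding.

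Ccl22 and Ccl17, ligands of Ccr4 made by mature medullary TEC and dendritic cells, fell to a few counts or none in both mutant groups. Ccl22 had 2, 0 and 0 counts in AR3_mut, 0, 0, 0 and 0 in nude, and 377, 308 and 421 in AR3_Het. It fell in AR3_mut (pooled counts, log2 ratio −7.84, 95% counting interval −10.88 to −5.98, adjusted p = 6.41e-06), and in nude it was at least 272-fold lower, with a floor of 3 counts for the whole group. Ccl17 was at 0.391, 0 and 0 CPM in AR3_mut, 0, 0.825, 1.11 and 0 CPM in nude and 18.4, 13.6 and 10.7 CPM in AR3_Het (log2 ratio −6.25, 95% counting interval −11.56 to −3.75, adjusted p = 0.000271 in AR3_mut, and log2 fold change −4.91 ± 0.73, adjusted p = 9.08e-05 in nude, or −5.54 without nude 3). Neither gene overlapped between AR3_Het and a mutant group.

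Ccl19, a Ccr7 ligand of the medulla, was uneven in AR3_mut. It was at 30.9, 8.1 and 2.99 CPM in AR3_mut 1 to 3, had 0 counts in all 4 nude libraries, and was at 121, 161 and 68.9 CPM in AR3_Het. Each AR3_mut library lay between the nude and the AR3_Het libraries, with AR3_mut 1 highest. Ccl19 fell in AR3_mut (log2 fold change −2.90 ± 0.63, adjusted p = 0.00617) and was at least 354-fold lower in nude than in AR3_Het. Against nude, AR3_mut was at least 57.1-fold higher (adjusted p = 0.0103). AR3_mut 1 held 79 of the 96 counts of AR3_mut. Without it the log2 fold change against AR3_Het was −4.27 (adjusted p = 0.000597), and the bound against nude was 19.6-fold (adjusted p = 0.0196).

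Ccl20, the ligand of Ccr6, had 6, 0 and 1 counts in AR3_mut, 1, 0, 0 and 1 in nude and 764, 475 and 371 in AR3_Het. It fell in AR3_mut (log2 fold change −6.57 ± 0.55, adjusted p = 3.97e-06, or −8.26 without AR3_mut 1) and in nude (log2 ratio −9.21, 95% counting interval −12.26 to −7.36, adjusted p = 5.89e-07). Xcl1, the C ligand that medullary TEC use to attract Xcr1-bearing dendritic cells and that T and NK cells also make, had 0 counts in AR3_mut, 0, 0, 0 and 6 in nude and 62, 32 and 28 in AR3_Het. It was at least 16.8-fold lower in AR3_mut than in AR3_Het (adjusted p = 0.00508) and fell in nude (log2 fold change −3.82 ± 0.89, adjusted p = 0.00564), where nude 4 held every count.

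Ccl5, a ligand that T cells make in quantity, was at 23.1, 13.9 and 20.9 CPM in AR3_mut, 8.67, 5.36, 1.11 and 15.1 CPM in nude and 294, 386 and 235 CPM in AR3_Het. The mutant groups overlapped each other but not AR3_Het. Ccl5 fell in AR3_mut (log2 fold change −3.98 ± 0.50, adjusted p = 7.54e-05) and in nude (log2 fold change −5.28 ± 0.47, adjusted p = 5.50e-06). Ccl6, a mouse chemokine of myeloid cells, was at 1.17, 1.16 and 0.995 CPM in AR3_mut, 0.361, 0, 0.553 and 1.23 CPM in nude and 68.1, 69.1 and 34.8 CPM in AR3_Het (log2 fold change −5.61 ± 0.59, adjusted p = 7.94e-06 in AR3_mut, and −6.64 ± 0.65, adjusted p = 1.25e-06 in nude, or −7.43 without nude 4). Of 14 tested myeloid markers 2 rose and 9 fell in AR3_mut, and 1 rose and 10 fell in nude. The 4 pan-leukocyte markers took 0.018 to 0.0227% of the counts in AR3_mut, 0.00989 to 0.032% in nude and 0.118 to 0.15% in AR3_Het.

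Ccl27a, a skin ligand of Ccr10, varied little within groups. It was at 28.2, 28.9 and 31.8 CPM in AR3_mut, 30.7, 31.8, 21.0 and 31.1 CPM in nude and 129, 140.3 and 126 CPM in AR3_Het. The mutant groups lay close together and well below AR3_Het, and Ccl27a fell in both (log2 fold change −2.16 ± 0.19, adjusted p = 4.99e-06 in AR3_mut, and −2.19 ± 0.16, adjusted p = 1.46e-06 in nude). Its last 100 transcript bases also occur in transcripts of Gm13306 and Gm20878, so reads of these copies could be split or lost, and it overlaps Il11ra1 on the other strand.

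**Figure D2:**
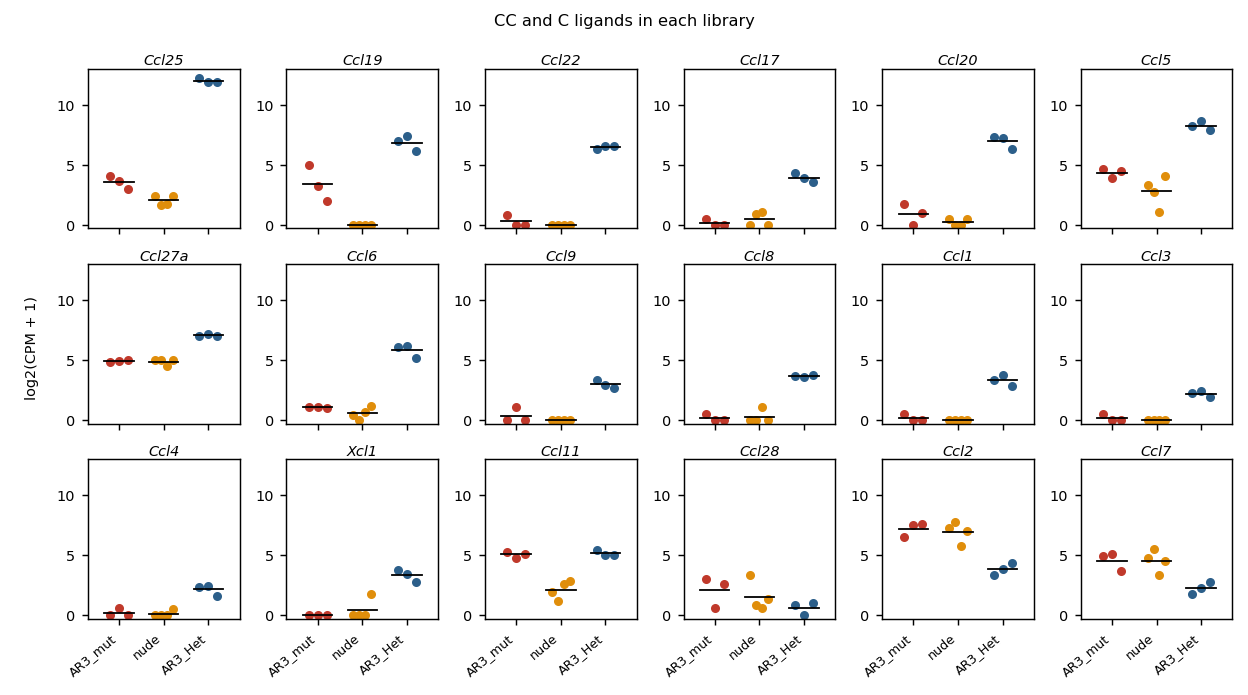
Level of the 17 CC ligands and Xcl1 as log2(CPM + 1) (vertical axis) in each library of AR3_mut (red, 3), nude (orange, 4) and AR3_Het (blue, 3), with black bars at group means. Most panels place AR3_Het above both mutant groups, whereas Ccl2 and Ccl7 place it at the bottom and Ccl11 sets nude apart.

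Along chromosome 11, neighbouring CC ligand genes differed in direction. Within 270.1 kb (chr11:82035571-82305690), Ccl2 and Ccl7 rose in both mutant groups, Ccl8 and Ccl1 fell in both, and Ccl11 fell in nude. Ccl2, which recruits monocytes through Ccr2, was at 92.3, 181 and 196 CPM in AR3_mut, 155, 214, 54.8 and 128 CPM in nude and 9.1, 13.6 and 20.2 CPM in AR3_Het. No AR3_mut or nude library reached down to the AR3_Het range (log2 fold change 3.44 ± 0.49, adjusted p = 0.000198 in AR3_mut, and 3.27 ± 0.48, adjusted p = 0.000165 in nude). Ccl7, another Ccr2 ligand, was at 29.3, 32.99 and 11.9 CPM in AR3_mut, 27.1, 45.8, 9.4 and 22.1 CPM in nude and 2.48, 3.94 and 6.01 CPM in AR3_Het (log2 fold change 2.60 ± 0.56, adjusted p = 0.00313 in AR3_mut, and 2.65 ± 0.54, adjusted p = 0.00164 in nude). Both genes are known to be induced in fibroblasts and endothelium. The shares of fibroblast markers, endothelial markers and immediate-early and dissociation genes, given above, were also higher in both mutant groups than in AR3_Het. Their part in the levels of Ccl2 and Ccl7 was not tested.

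Ccl11, the eotaxin that attracts eosinophils through Ccr3, set the nude group apart from both others. It was at 38.7, 27.2 and 33.8 CPM in AR3_mut, 2.89, 1.24, 4.98 and 6.14 CPM in nude and 44.1, 31.2 and 31.8 CPM in AR3_Het. AR3_mut and AR3_Het overlapped (log2 fold change −0.10 ± 0.34, adjusted p = 0.844), while Ccl11 fell in nude (log2 fold change −3.24 ± 0.37, adjusted p = 2.72e-05) and was higher in AR3_mut than in nude (log2 fold change 3.14 ± 0.38, adjusted p = 0.00077). Ccl8 and Ccl1, both ligands of Ccr8 in the mouse, had 1 count each over the AR3_mut libraries, in AR3_mut 1, 2 and 0 over the nude libraries, those of Ccl8 in nude 3, and 149 and 115 over the AR3_Het libraries. Ccl8 fell in AR3_mut (log2 ratio −5.94, 95% counting interval −11.26 to −3.44, adjusted p = 0.000375), as did Ccl1 (log2 ratio −5.57, 95% counting interval −10.89 to −3.06, adjusted p = 0.000843).

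In a second group of neighbours on chromosome 11, the 3 tested genes Ccl5, Ccl9 and Ccl6 fell in both mutant groups. Ccl9, a macrophage ligand of Ccr1, had 0, 2 and 0 counts in AR3_mut, 0 in nude and 44, 21 and 25 in AR3_Het (log2 ratio −4.22, 95% counting interval −7.29 to −2.32, adjusted p = 0.00539 in AR3_mut), both AR3_mut counts being in AR3_mut 2. Ccl3 and Ccl4, inflammatory ligands of macrophages and T cells, had too few counts for the test, with 1 count each over AR3_mut, 0 and 1 over nude, and 45 each over AR3_Het. Without the filter on low counts both were called lower in both mutant groups.

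**Figure D3:**
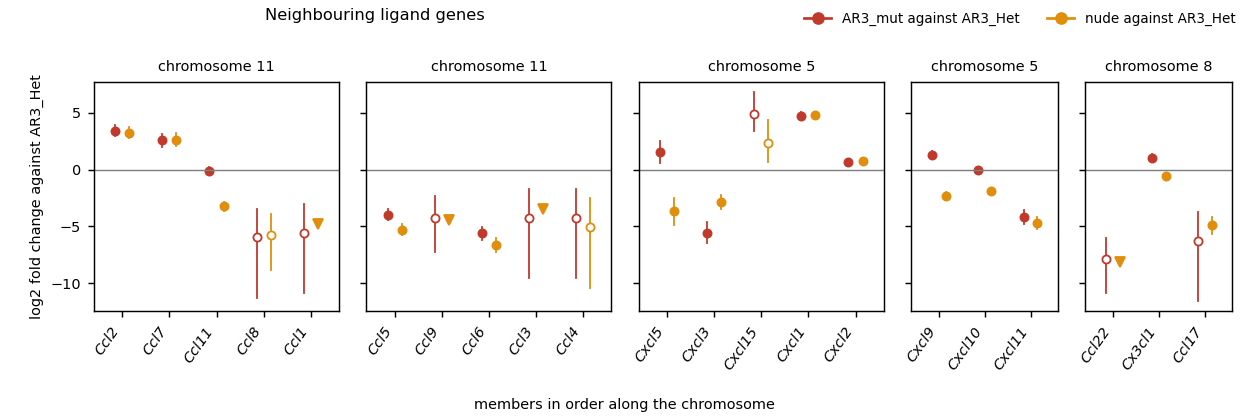
Log2 fold change against AR3_Het (vertical axis) of ligand genes that neighbour each other, in their order along the chromosome, for AR3_mut (red) and nude (orange), with fitted values ± SE as filled points, pooled ratios with 95% counting intervals as open points and bounds as triangles. For AR3_mut, Ccl2 lies at 3.44 and the nearby Ccl8 at −5.94, and Cxcl1 lies at 4.73 and the nearby Cxcl3 at −5.57.

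The neutrophil-attracting CXC ligands, which signal through Cxcr2, also parted within 1 stretch of 146.6 kb on chromosome 5. Cxcl1 was at 624, 1027 and 962 CPM in AR3_mut, 730.1, 1392, 674 and 839.7 CPM in nude and 31.4, 38.5 and 28.7 CPM in AR3_Het. Every mutant library was above every AR3_Het library, and Cxcl1 rose in AR3_mut (log2 fold change 4.73 ± 0.34, adjusted p = 1.58e-06) and in nude (log2 fold change 4.79 ± 0.33, adjusted p = 9.66e-07). Cxcl3 moved the other way. It was at 1.56, 0 and 0.995 CPM in AR3_mut, 1.45, 15.7, 2.21 and 6.14 CPM in nude and 56.7, 55.5 and 26.4 CPM in AR3_Het, without overlap of AR3_Het and either mutant group. Cxcl3 fell in AR3_mut (log2 fold change −5.57 ± 0.93, adjusted p = 0.000589, or −6.79 without AR3_mut 1) and in nude (log2 fold change −2.83 ± 0.61, adjusted p = 0.00247, or −3.79 without nude 2).

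Cxcl2 changed least of these genes, at 58.7, 71.2 and 75.6 CPM in AR3_mut, 60.3, 109, 57.0 and 60.2 CPM in nude and 45.7, 52.4 and 30.7 CPM in AR3_Het. All mutant libraries lay above all AR3_Het libraries by a small margin. The test was not passed in AR3_mut (log2 fold change 0.67 ± 0.28, adjusted p = 0.0783) and was passed in nude (0.74 ± 0.26, adjusted p = 0.0354), where the call was lost in 7 of 19 alternatives, among them library totals without TMM (0.38, adjusted p = 0.233) and leaving out nude 2 (0.47, adjusted p = 0.0961).

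Cxcl5, made by epithelia, was carried in AR3_mut by 1 library. It was at 234, 19.7 and 28.9 CPM in AR3_mut, 0.361, 0, 0 and 9.42 CPM in nude and 36.8, 42.1 and 20.2 CPM in AR3_Het. AR3_mut 1 was far above the rest and AR3_mut 2 and 3 were within or close to the AR3_Het range (log2 fold change 1.56 ± 1.01, adjusted p = 0.251 in AR3_mut). Cxcl5 fell in nude (log2 fold change −3.68 ± 1.21, adjusted p = 0.0311), a call lost on leaving out AR3_Het 1 or 2 or nude 1, 2 or 3, with adjusted p = 0.0669 to 0.0757, and nude 4 held all but 1 of the 24 nude counts. Cxcl15, lungkine, was too low for the test, with 35, 2 and 12 counts in AR3_mut, 3, 0, 7 and 5 in nude and 0, 3 and 1 in AR3_Het. Without the filter on low counts it was called higher in AR3_mut (4.59, adjusted p = 0.00783) and was not called in nude (2.21, adjusted p = 0.163).

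The promoter windows of Cxcl1, Cxcl2 and Cxcl3 are shown because these nearby genes share a site letter for letter, while Cxcl1 rose and Cxcl3 fell in both mutant groups. Capitals mark matches to the kappa B consensus, the sequence bound by NF-kB factors.
Cxcl1 (chr5:90890995-90891294, plus strand): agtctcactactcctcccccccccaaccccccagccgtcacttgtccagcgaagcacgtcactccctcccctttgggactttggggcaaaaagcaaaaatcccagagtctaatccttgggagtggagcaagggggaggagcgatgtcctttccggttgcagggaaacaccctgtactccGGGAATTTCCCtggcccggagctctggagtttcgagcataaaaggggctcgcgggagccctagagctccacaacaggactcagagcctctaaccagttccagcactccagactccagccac
Cxcl2 (chr5:90903649-90903948, plus strand): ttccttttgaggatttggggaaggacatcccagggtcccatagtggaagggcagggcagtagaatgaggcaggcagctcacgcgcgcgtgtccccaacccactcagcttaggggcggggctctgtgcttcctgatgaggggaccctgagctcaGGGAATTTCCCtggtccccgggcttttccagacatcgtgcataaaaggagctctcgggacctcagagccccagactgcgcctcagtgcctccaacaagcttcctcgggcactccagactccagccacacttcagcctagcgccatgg
Cxcl3 (chr5:90785851-90786150, plus strand): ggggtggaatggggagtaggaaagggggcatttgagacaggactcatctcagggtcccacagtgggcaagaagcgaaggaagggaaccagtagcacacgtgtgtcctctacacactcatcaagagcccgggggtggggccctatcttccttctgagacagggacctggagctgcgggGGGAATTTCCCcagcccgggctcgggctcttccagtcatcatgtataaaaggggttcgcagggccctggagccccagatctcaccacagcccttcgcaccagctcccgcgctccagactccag
Each window holds GGGAATTTCC, beginning 71 bases before the start in Cxcl1, 97 in Cxcl2 and 73 in Cxcl3, and the overlapping match on the other strand begins 1 base further on. The kappa B consensus, searched on both strands, occurred in 11 of 35 member windows (31.4%) and in 8.46% of all windows. Of members that rose in AR3_mut 2 of 5 windows held it, and of members that fell 5 of 17. The AP-1 motif TGANTCA occurred in 6 of 35 member windows (17.1%) and 7.81% of all windows, and no AP-1 match in a member window overlapped a kappa B match. The AP-1 letters are not in the windows of Cxcl1, Cxcl2 and Cxcl3.

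Interferon-induced ligands of Cxcr3, which attract activated T cells and also lie side by side on chromosome 5, each had a pattern of its own. Cxcl9 was at 25.4, 24.9 and 22.9 CPM in AR3_mut, 2.17, 1.65, 0.553 and 3.28 CPM in nude and 10.8, 9.4 and 9.44 CPM in AR3_Het. The 3 groups did not overlap, with AR3_mut highest and nude lowest. Cxcl9 rose in AR3_mut (log2 fold change 1.31 ± 0.33, adjusted p = 0.00771) and fell in nude (log2 fold change −2.29 ± 0.37, adjusted p = 0.000314). It was the 1 member called in opposite directions in the mutant groups, and the direct test between them was passed (log2 fold change 3.60 ± 0.37, adjusted p = 0.00035).

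Cxcl10 was at 437, 327 and 512 CPM in AR3_mut, 119, 116, 74.7 and 155 CPM in nude and 384, 526 and 388 CPM in AR3_Het. AR3_mut lay within or near the AR3_Het range (log2 fold change −0.03 ± 0.26, adjusted p = 0.945), and nude was lower than both (nude against AR3_Het −1.89 ± 0.25, adjusted p = 7.18e-05). Cxcl11 was at 1.56, 0.579 and 0.995 CPM in AR3_mut, 0.723, 0, 1.66 and 0.819 CPM in nude and 19.2, 21.8 and 20.8 CPM in AR3_Het. It fell in both mutant groups (log2 fold change −4.16 ± 0.60, adjusted p = 0.00012 in AR3_mut, and −4.70 ± 0.55, adjusted p = 1.69e-05 in nude). Cxcl10 and Cxcl11 overlap Art3 on the other strand. The gene annotation types Cxcl11 as a polymorphic pseudogene, so its RNA need not give a working ligand in every strain.

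Of the other CXC ligands, Cxcl13, which attracts B cells through Cxcr5, was at 1.96, 5.21 and 4.98 CPM in AR3_mut, 1.08, 3.71, 1.11 and 0 CPM in nude and 15.5, 8.18 and 8.58 CPM in AR3_Het. It fell in nude (log2 fold change −2.83 ± 0.66, adjusted p = 0.00392, or −3.84 without nude 2), and in AR3_mut it did not pass the test (log2 fold change −1.49 ± 0.68, adjusted p = 0.101). Cxcl17, a ligand of mucosal epithelia, was at 129, 41.7 and 105 CPM in AR3_mut, 29.6, 14.4, 26.5 and 20.5 CPM in nude and 20.1, 47.0 and 17.6 CPM in AR3_Het. AR3_mut 1 and 3 were above all AR3_Het libraries and AR3_mut 2 was below AR3_Het 2. Cxcl17 rose in AR3_mut (log2 fold change 1.72 ± 0.46, adjusted p = 0.0101), a call lost without AR3_Het 1 (1.45, adjusted p = 0.0539).

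Cxcl16, a membrane-bound ligand of Cxcr6, averaged 105 ± 17.4 CPM in AR3_mut, 169 ± 66.7 CPM in nude and 93.2 ± 20.4 CPM in AR3_Het (SD, n = 3, 4 and 3). Its call in nude (log2 fold change 0.86 ± 0.31, adjusted p = 0.0382) was lost in 12 of 19 alternatives. Cxcl14, an epithelial and stromal ligand, was at 32.5, 2.89 and 2.99 CPM in AR3_mut, 26.0, 28.5, 18.8 and 34.0 CPM in nude and 20.7, 27.3 and 10.5 CPM in AR3_Het. AR3_mut 1 was again the high library. The value in AR3_mut (log2 fold change −0.45 ± 0.68, adjusted p = 0.638) became −2.71 with adjusted p = 0.00304 without AR3_mut 1. Ccl28, a mucosal Ccr10 ligand, was uneven in both mutant groups, at 7.43, 0.579 and 4.98 CPM in AR3_mut, 9.39, 0.825, 0.553 and 1.64 CPM in nude and 0.828, 0 and 1.07 CPM in AR3_Het, and was not called.

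Cx3cl1, the membrane-anchored ligand of Cx3cr1 made by endothelium and epithelium, was at 161, 84.5 and 203 CPM in AR3_mut, 31.4, 35.5, 65.8 and 60.2 CPM in nude and 82.8, 74.3 and 59.4 CPM in AR3_Het. AR3_mut 2 was only just above the highest AR3_Het library. The rise in AR3_mut (log2 fold change 1.04 ± 0.34, adjusted p = 0.0288) was lost without AR3_mut 1 or 3, without any 1 of the AR3_Het libraries and with library totals without TMM (0.75 to 1.08, adjusted p = 0.0601 to 0.114). It lies between Ccl22 and Ccl17 on chromosome 8, both of which fell in the same libraries.

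**Figure D4:**
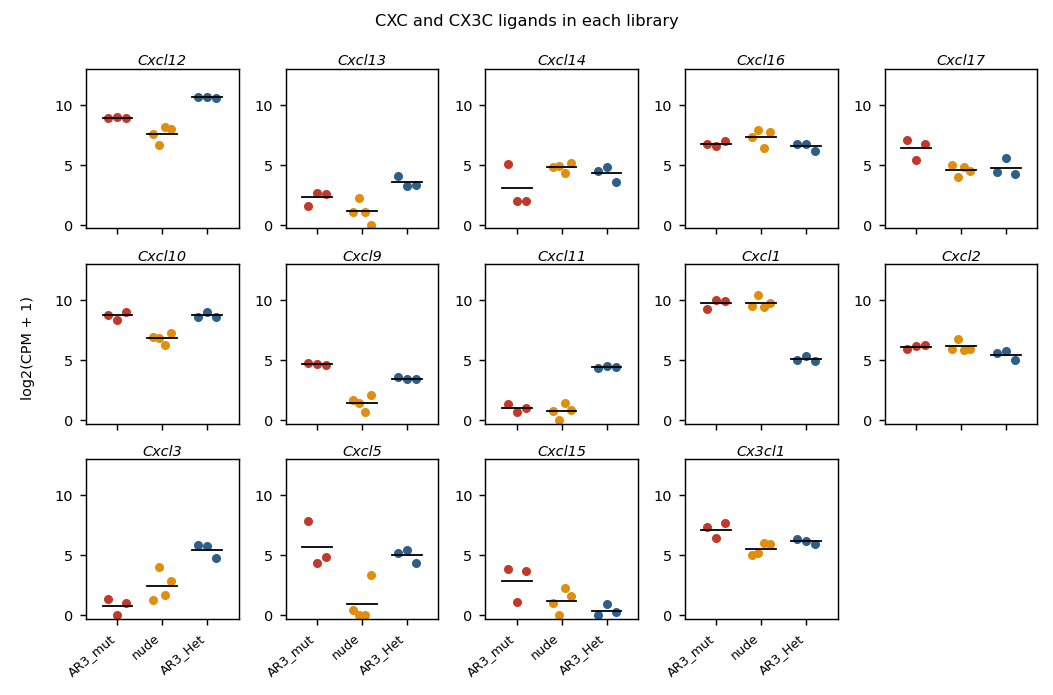
Level of the 13 CXC ligands and Cx3cl1 as log2(CPM + 1) (vertical axis) in each library of AR3_mut (red, 3), nude (orange, 4) and AR3_Het (blue, 3), with black bars at group means. Cxcl1 is higher in both mutant groups, Cxcl3, Cxcl11 and Cxcl12 are lower in both, and Cxcl9 and Cxcl10 separate nude from AR3_mut.

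Among the 36 tested members the atypical receptor Ackr3 had the largest log2 fold change upward in both mutant groups, while Ackr4 fell. Ackr3, which scavenges Cxcl12 and is found on endothelium and stromal cells, was at 108, 164 and 276 CPM in AR3_mut, 223, 331, 152 and 181 CPM in nude and 5.17, 2.42 and 3.43 CPM in AR3_Het. Every mutant library was above every AR3_Het library, and AR3_mut and nude overlapped. Ackr3 rose in AR3_mut (log2 fold change 5.58 ± 0.46, adjusted p = 4.47e-06) and in nude (log2 fold change 5.87 ± 0.46, adjusted p = 2.26e-06), in the libraries where its ligand Cxcl12 fell. The fibroblast and endothelial marker shares were higher in these libraries as well, and their part in the level of Ackr3 was not tested.

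Ackr4, which removes Ccl19, Ccl21 and Ccl25 and is known from thymic epithelium, was at 92.3, 50.4 and 25.9 CPM in AR3_mut, 8.31, 13.2, 6.08 and 9.01 CPM in nude and 243, 340.1 and 527 CPM in AR3_Het. The 3 groups did not overlap, and the libraries also differed within AR3_mut and within AR3_Het. Ackr4 fell in AR3_mut (log2 fold change −2.68 ± 0.42, adjusted p = 0.000389) and further in nude (log2 fold change −5.32 ± 0.44, adjusted p = 3.02e-06), and AR3_mut stood above nude (log2 fold change 2.64 ± 0.42, adjusted p = 0.00338). Ackr4 overlaps Acad11 on the other strand. Ackr2, a scavenger of inflammatory CC ligands known from lymphatic endothelium, was at 11.7, 12.7 and 5.97 CPM in AR3_mut, 1.08, 0.412, 0.553 and 3.28 CPM in nude and 1.86, 1.52 and 1.07 CPM in AR3_Het. It rose in AR3_mut (log2 fold change 2.78 ± 0.58, adjusted p = 0.00235) and was not called in nude (log2 fold change −0.12 ± 0.64, adjusted p = 0.896), and it was higher in AR3_mut than in nude (log2 fold change 2.89 ± 0.57, adjusted p = 0.00887, or 3.80 without nude 4).

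Signalling receptors were few and low. Ccr7, the receptor of Ccl19 on maturing thymocytes and dendritic cells, was at 14.9, 5.79 and 3.98 CPM in AR3_mut, 2.53, 9.07, 1.66 and 7.78 CPM in nude and 28.8, 27.0 and 15.7 CPM in AR3_Het. No mutant library reached the AR3_Het range, by a narrow margin for AR3_mut 1. Ccr7 fell in nude (log2 fold change −2.15 ± 0.53, adjusted p = 0.00556). In AR3_mut it did not pass the test (log2 fold change −1.42 ± 0.57, adjusted p = 0.0642) but was called lower in 6 of 19 alternatives, among them DESeq2 (−1.52, adjusted p = 0.0409), and without AR3_mut 1 it was at −2.23 (adjusted p = 0.0205).

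Cxcr4, the receptor of Cxcl12, was at 12.5, 10.4 and 15.9 CPM in AR3_mut, 6.14, 3.3, 3.87 and 5.73 CPM in nude and 18.2, 11.8 and 16.5 CPM in AR3_Het. AR3_mut overlapped AR3_Het (log2 fold change −0.29 ± 0.32, adjusted p = 0.507), and nude lay below both (log2 fold change −1.69 ± 0.30, adjusted p = 0.000738 against AR3_Het). Endothelial cells express Cxcr4 as well as leukocytes. Cxcr5, the Cxcl13 receptor of B cells, averaged 2.08 ± 1.97 CPM in AR3_mut, 0.283 ± 0.351 CPM in nude and 6.26 ± 0.628 CPM in AR3_Het (SD, n = 3, 4 and 3), and its difference from AR3_Het passed the test in nude (adjusted p = 0.000786) and not in AR3_mut (adjusted p = 0.115). Ccr10, the receptor of Ccl27a and Ccl28, had 59, 5 and 2 counts in AR3_mut, 0, 0, 0 and 4 in nude and 28, 31 and 28 in AR3_Het, with AR3_mut 1 alone above AR3_Het.

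Ccr1, Ccr2, Ccr4 and Ccr6 had too few counts for the test. Ccr1, Ccr2 and Ccr6 had 0 counts in AR3_mut and 30, 55 and 47 over the AR3_Het libraries, so that Ccr1 was at least 4.13-fold, Ccr2 at least 7.58-fold and Ccr6 at least 6.48-fold lower in AR3_mut. Ccr4, of T cells, had 1 count in AR3_mut and 44 over AR3_Het. In nude these 4 genes had 0 to 4 counts each. Without the filter on low counts these 4 receptors were called lower in both mutant groups. Ligands of Ccr6 (Ccl20) and Ccr4 (Ccl22 and Ccl17) fell in both groups as well, whereas the Ccr2 ligands Ccl2 and Ccl7 rose in both, and Cxcl12 fell in AR3_mut where its receptor Cxcr4 was not called. The pan-leukocyte and thymocyte marker shares, given above, were lower in the same libraries, and their part in these levels was not tested.

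**Figure D5:**
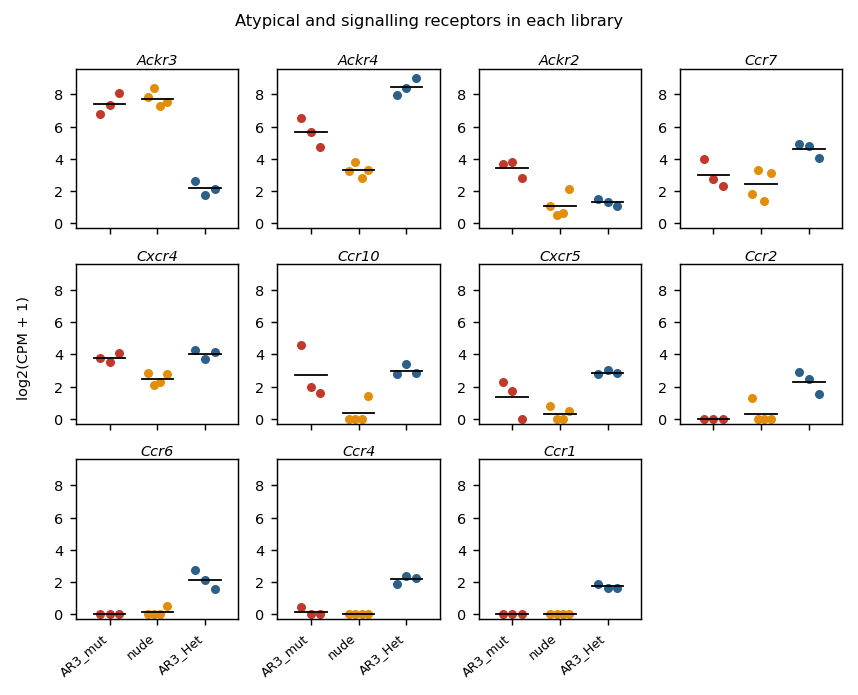
Level of the 3 atypical and of 8 signalling receptors as log2(CPM + 1) (vertical axis) in each library of AR3_mut (red, 3), nude (orange, 4) and AR3_Het (blue, 3), with black bars at group means. Ackr3 is the receptor that stands higher in both mutant groups, Ackr4 steps down to AR3_mut and then to nude, and Ccr1, Ccr2, Ccr4 and Ccr6 are near 0 in both mutant groups.

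Between the mutant groups, AR3_mut held more of several ligands and receptors than nude. Of the 36 tested members 13 were higher in AR3_mut and 0 lower, by edgeR's quasi-likelihood test, where 11.3% of all genes were called, 7.58% as higher and 3.71% as lower. At an unadjusted p under 0.05 the count lower in AR3_mut was 2, DESeq2 called 1 (Cxcl3, −2.85, adjusted p = 0.0295) and limma-voom 0. Without the filter on low counts 13 of 44 members were higher and 0 lower, where 9.09% of all genes were called, 6.15% as higher and 2.94% as lower. The libraries of AR3_mut and nude did not overlap for 13 members, against 20.7% of all genes. The median member was at 1.32, or 1.25 with genes at 0 set to their bound, against 0 over all genes. Of the 13, 4 were also lower than AR3_Het in both groups and so lay between nude and AR3_Het, namely Ccl25 (AR3_mut against nude 1.84 ± 0.33, adjusted p = 0.00541), Cxcl12 (1.25 ± 0.28, adjusted p = 0.015), Ackr4 and Ccl19. A further 5, Ccl11, Cxcl10 (1.87 ± 0.25, adjusted p = 0.0013), Cxcl5, Cxcr4 and Ccr10, were called lower in nude and not called in AR3_mut against AR3_Het.

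Higher in AR3_mut than in both other groups were Cxcl17 (2.01 ± 0.43, adjusted p = 0.0128 against nude), Cx3cl1 (1.63 ± 0.32, adjusted p = 0.00909), Ackr2 and Cxcl9. Without AR3_mut 1 the count called higher was 9, and Cxcl5 (3.22, adjusted p = 0.0779), Ccr10 (2.46, adjusted p = 0.229), Cxcl17 (1.67, adjusted p = 0.0583) and Cxcr4 (1.41, adjusted p = 0.0542) were no longer called. Cxcl14 was then called lower in AR3_mut (−3.18, adjusted p = 0.00867). By the same test, Cxcl5 and Ccr10 also lost their calls without nude 1 or nude 2 and with only the 2 groups compared (adjusted p = 0.0566 to 0.0855). Cxcr4 lost its call without AR3_mut 3 too (adjusted p = 0.0558), and Cxcl17 with the replicate number as a block (adjusted p = 0.0679). Endothelial markers took 0.484 to 0.61% of the counts in AR3_mut and 0.111 to 0.199% in nude, and 10 of 12 were called higher in AR3_mut. Pericyte and smooth muscle markers took 0.188 to 0.249% in AR3_mut and 0.0307 to 0.11% in nude, and 5 of 8 were called higher. Of the other lists, 4 of 14 myeloid, 2 of 4 pan-leukocyte and 4 of 9 cortical TEC markers were called higher in AR3_mut than in nude. As a share of counts, however, cortical TEC markers were lower in AR3_mut (0.221 to 0.431%) than in nude (0.462 to 0.555%). The myeloid and pan-leukocyte shares of the mutant groups overlapped. Of 8 epithelial markers 0 were called higher and 1 lower, and of 9 tested fibroblast markers also 0 and 1. The part of these cells in the difference was not tested.

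Genes outside the symbol rule that act with chemokines are read against the shares of all genes called, 21.2% higher and 20.6% lower in AR3_mut, and 23.7% higher and 24.2% lower in nude. Of 29 tested genes of chemokine signal transduction 11 rose and 9 fell in AR3_mut, and 11 rose and 11 fell in nude (median log2 fold changes −0.11 and 0.08). Rgs16, which shortens G protein signals, averaged 284 ± 17.3 CPM in AR3_mut, 74.7 ± 33.4 CPM in nude and 9.28 ± 0.217 CPM in AR3_Het (log2 fold change 4.93 ± 0.33, adjusted p = 1.06e-06 in AR3_mut, and 2.996 ± 0.30, adjusted p = 1.21e-05 in nude). Rgs4, of the same family, also rose in both (2.66 in AR3_mut and 2.21 in nude). Plcb2, a phospholipase of leukocytes and tuft cells, fell in AR3_mut (−6.18).

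Among 15 genes of chemokine handling 7 rose and 4 fell in AR3_mut, and 7 rose and 3 fell in nude (medians 0.41 and 0.09). Tpst1, which sulfates tyrosines of chemokine receptors, rose in both (2.97 ± 0.25, adjusted p = 4.07e-06 in AR3_mut, and 2.50 ± 0.23, adjusted p = 7.06e-06 in nude), as did its relative Tpst2 (1.69 in AR3_mut and 1.18 in nude). The heparan sulfate carriers Gpc1 (−2.85 in AR3_mut and −3.95 in nude) and Sdc1 (−1.18 in AR3_mut and −1.77 in nude) fell in both. Dpp4, a protease that trims Cxcl12, rose in both as well (3.56 in AR3_mut and 4.74 in nude).

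Of 8 tested chemokine relatives 4 rose in AR3_mut and the other 4 were not called, and 3 rose and 2 fell in nude (medians 1.46 and −0.08). Rarres2, the precursor of the attractant chemerin, averaged 1927 ± 843 CPM in AR3_mut, 8156 ± 3340.0 CPM in nude and 37.9 ± 16.3 CPM in AR3_Het (log2 fold change 5.67 ± 0.58, adjusted p = 1.87e-05 in AR3_mut, and 7.75 ± 0.63, adjusted p = 2.96e-06 in nude). Ackr1, the atypical receptor of venular endothelium, rose in AR3_mut (5.58 ± 0.58, adjusted p = 1.89e-05) and in nude (3.83 ± 0.55, adjusted p = 0.000143). Pf4, a platelet CXC chemokine, fell in nude (−1.11 ± 0.38, adjusted p = 0.0312).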

How the data were processed

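Raw counts per gene were used from the table the authors deposited, for 10 libraries of 1056066 to 4175851 counts. Another 20 per-library columns of that table were not used. Per the submitters' processing notes the tools were bcl2fastq, cutadapt, STAR 2.4.2a, HTSeq and DESeq2 with build mm10. How molecular identifiers and strand entered the counts is a detail not given in the sources used here. Intervals therefore cover counting error only.

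Genes passing filterByExpr (minimum count 10, minimum total 15; 12912 of 15790) were scaled by TMM and fitted with the 3 groups in 1 model by edgeR 4.0.16 (robust quasi-likelihood test, Benjamini-Hochberg adjustment over all genes tested) in R 4.3.3. DESeq2 1.42.0 and limma-voom were alternatives. The scripts were tested on simulated data. Folds against a group at 0 are bounds from a floor of 3 counts, and groups with 1 to 3 counts have a pooled ratio with an exact 95% interval. Positions are those of GRCm38 and promoters those of RefSeq. Members named one by one were called, changed by 1 or more on the log2 scale against AR3_Het or between the mutant groups, and averaged 10 CPM or more in the higher group (27 members), but any member may be named. The members and lists were chosen with earlier results of these data known. Results of 1 member and of 1 gene of the lists are not reported here one by one.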

Additional observations from a re-analysis of the deposited data

Results flagged for a closer look

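Cxcl9 was the 1 member called in opposite directions in the mutant groups. The difference between its changes against AR3_Het was 3.60 on the log2 scale (AR3_mut minus nude), which edgeR's quasi-likelihood test between AR3_mut and nude placed at adjusted p = 0.00035. All 3 AR3_mut libraries (22.9 to 25.4 CPM) were above all 4 nude libraries (0.553 to 3.28 CPM).

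In the nude group 1 library lay far from the other 3 for 10 members by Dixon's criterion, which chance meets in about 1 of 20 groups of normally distributed values. Groups of 3 were not examined this way. Of the members with more than 6 counts in nude, Cxcl2 was at 109 CPM in nude 2 against 57.0 to 60.3 CPM in the others, and Ccl28 was at 9.39 CPM in nude 1 against 0.553 to 1.64 CPM. Cxcl5 was at 9.42 CPM in nude 4 against 0 to 0.361 CPM. Ccl27a was low in nude 3, at 21.0 CPM against 30.7 to 31.8 CPM.

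The other 6 flags rest on 1 to 6 counts in a single library with 0 in the rest. Such counts always meet the criterion, so the share expected by chance does not apply to them. They are Xcl1 at 2.46 CPM, Ccr10 at 1.64 CPM, Ccl4 at 0.409 CPM and Ccr6 at 0.409 CPM in nude 4, Ccr2 at 1.45 CPM in nude 1, and Ccl8 at 1.11 CPM in nude 3.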

How the results depend on the processing

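Members were recounted under 19 alternatives, 10 of which left out 1 library each. In AR3_mut against AR3_Het the count higher was 8, and 6 to 9 on leaving out 1 library, and the count lower was 16, and 16 to 18. In nude against AR3_Het the count higher was 6, and 4 to 6, and the count lower was 25, and 24 to 25. In AR3_mut against nude the count higher was 13, and 9 to 14, and the count lower was 0, and 0 to 1. It was 1 with DESeq2 (Cxcl3), without AR3_mut 1 (Cxcl14, −3.18, adjusted p = 0.00867) and without nude 3 (Cxcl16, −0.92, adjusted p = 0.0184). Under the other 9 alternatives these counts were 7 to 10 and 13 to 23, 4 to 6 and 19 to 32, and 11 to 13 and 0 to 1. The lower ends 13 and 19 came with a stricter filter on low counts, under which 28 members were tested instead of 36. The upper ends 23 and 32 came without a filter, with 44 members tested. Of all genes, 44.9%, 50.3% and 13.1% were called in these comparisons with the stricter filter, and 38%, 45.8% and 9.09% without a filter. Of 2028 values of single members, 1927 kept their direction and side of the threshold, 20 gained a call and 43 lost one. Another 38 changed sign without being called in either fit, and 0 called values changed sign.

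With the replicate number as a block (replicate block) the counts higher and lower were 8 and 17 in AR3_mut against AR3_Het, 5 and 25 in nude against AR3_Het, and 13 and 0 in AR3_mut against nude. Same-numbered libraries correlated at −0.31 to 0.157 in their deviations from group means, and differently numbered libraries of different groups at −0.252 to 0.295. The labels do not say what a replicate number stands for. These values cannot settle whether same-numbered libraries share a preparation. Members at a few counts are limited by depth: 8 of 44 could not be tested, and 0 counts in a group bounds a fold only to the floor.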
